A study of Mus musculus with 12 samples.

Results

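Of 18193 genes measured in sorted mouse progenitors, 124 peaked in both populations that carried a single reporter. They are the genes whose lowest intensity on the 6 arrays of red-only and green-only cells exceeded the highest intensity on the 6 arrays of double-positive and double-negative cells, with a mean of at least 20 over the 6 single-reporter arrays. Each gene was read from 1 probe set, the one with the highest mean over all 12 arrays. Because these intensities chose the genes, the difference between single-reporter and other arrays is given as a description, with no test. The rule took 124 of the 7288 genes that reached the minimum mean, or 1.70%, and the mirror image of the rule took 44 of 7323 genes, or 0.601%.

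The cells came from mouse embryonic stem cells that carried a dsRed reporter of the second heart field and an eGFP reporter driven by a cardiac enhancer. The stem cells were differentiated in hanging drops, and embryoid bodies of day 6 were dissociated and sorted by flow cytometry. All 4 populations therefore carry the same reporter constructs. Red-only cells were dsRed positive and eGFP negative (R+G-), green-only cells were dsRed negative and eGFP positive (R-G+), double-positive cells showed both colours (R+G+) and double-negative cells showed neither (R-G-). Each population was measured on 3 single-colour Affymetrix arrays, from experiments A, B and C. Populations were taken from the sample titles, since the description of the sort prints the same name for more than one of them. The labels do not name the stem cell line or its number of clones, or say whether the experiments were separate cultures, so p-values measure only the spread between these arrays, which may be technical. Neither reporter transcript is named among the probe sets, so the sort could not be checked on the reporters themselves.

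The second heart field is a pool of mesodermal progenitors that adds cells to the outflow tract, the right ventricle and the atria, and such progenitors can give cardiomyocytes, smooth muscle and endothelium. Endothelial cells line vessels and the inner surface of the heart, and their identity is held by ETS and SOX F transcription factors acting with receptors for VEGF, semaphorins and BMP ligands. Endothelial and endocardial progenitors migrate, remodel their actin cytoskeleton and deposit and digest matrix as they form tubes and, in the cushions, turn into mesenchyme.

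Array medians lay between 6.29 and 6.73 and the 3'/5' ratio of the actin control probes between 1.32 and 1.55, with double-positive arrays (1.40 to 1.55) toward the upper end. Summed levels of 6 cardiomyocyte markers were highest in double-positive arrays (9339 to 11698), lower in green-only (4555 to 6122) and red-only arrays (1977 to 2984) and lowest in double-negative arrays (208 to 277), whereas 6 pluripotency markers summed to 1427 to 1701 in double-negative arrays and at most 148 elsewhere, and 5 blood markers to 1068 to 1960 and at most 142. None of these markers is among the 124 genes. The array of green-only cells in experiment A differed most from its group: its deviation from the group mean had an SD of 0.312 on the log2 scale over the 124 genes, against 0.105 to 0.182 on the other arrays. Results that rest on it are given with and without it.

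**Figure D1:**
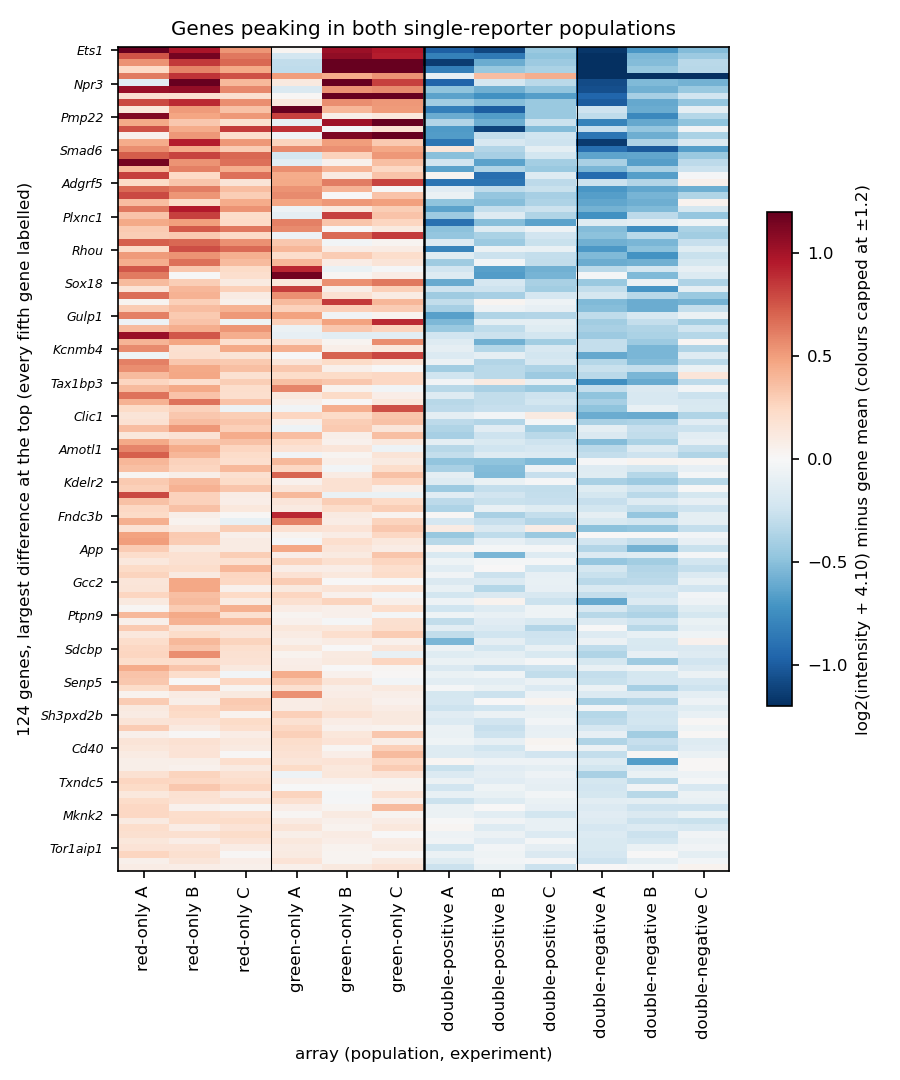
Colours show log2(intensity + 4.10) minus the gene's mean over the 12 arrays, for the 124 genes in rows (largest difference at the top) and the 12 arrays in columns, grouped by population. The left 6 columns are above the right 6 in every row, as the rule requires, and the endothelial rows near the top are paler on the green-only array of experiment A than on those of experiments B and C.

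Most of the differences were modest. The ratio of the mean intensity of the 6 single-reporter arrays to that of the other 6 ran from 1.15 to 3.68 with a median of 1.46. It was at least 2 for 19 genes and under 1.5 for 68. Green-only arrays held the lowest single-reporter value for 89 genes and red-only arrays for 35. A double-positive array held the highest value among the other arrays for 69 genes and a double-negative array for 55. Zc3hav1l was just inside the gap (lowest single-reporter array 68.0, highest other array 67.9), with Galnt1 and Nrp1 next. Adam15, Gabarap and Mtch1 were just outside it (Adam15 at 59.67 against 59.68). The genes closest above the minimum mean were Frmd4a (20.1) and Ctla2a (21.0), and Trp53i13 (17.7) and Myo6 (16.7) met the gap but lay below the minimum.

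Ets1, an ETS transcription factor active in angiogenesis, had the largest difference. On the arrays of experiments A, B and C, Ets1 read 94.3, 70.9 and 50.8 in red-only and 34.8, 73.0 and 69.6 in green-only cells. It read 15.1, 13.7 and 23.7 in double-positive and 12.8, 19.2 and 22.4 in double-negative cells, in the same order of experiments that is kept for all genes. Its ratio was 3.68, and the green-only value of experiment A was the lowest of its 6 single-reporter values. Cdh5 (VE-cadherin) forms the adherens junctions between endothelial cells. Cdh5 read 38.7, 50.6 and 45.5 in red-only and 25.2, 96.2 and 94.1 in green-only cells, against 16.5, 22.3 and 23.8 in double-positive and 9.45, 22.4 and 24.7 in double-negative cells. Values of experiments B and C were higher in green-only than in red-only cells, and in experiment A the order was the opposite. Ramp2 is the subunit that makes the calcitonin receptor-like receptor a receptor for adrenomedullin, a peptide needed for vessel growth. Ramp2 read 252, 315 and 281 in red-only and 140.1, 414 and 404 in green-only cells, against 76.1, 113 and 127 in double-positive and 72.4, 119 and 137 in double-negative cells. The single-reporter mean of Ramp2 was 2.81 times that of the other arrays, and its lowest value, again the green-only array of experiment A, lay just above the highest double-negative value.

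Sox7 and Sox18, SOX F transcription factors of endothelium, were at low intensity with ratios of 2.61 and 1.80. Sox7 read 15.5, 22.9 and 17.6 in red-only and 14.3, 36.9 and 39.1 in green-only cells, against 7.76, 11.4 and 11.9 in double-positive and 6.23, 8.48 and 10.4 in double-negative cells. Sox7 is also a gene of extraembryonic endoderm. Eng (endoglin), a co-receptor for TGF-beta and BMP ligands in endothelium, had the same order as Cdh5. Eng read 71.7, 72.8 and 68.2 in red-only and 55.2, 94.8 and 107 in green-only cells, against 40.7, 43.4 and 48.7 in double-positive and 39.97, 45.5 and 42.1 in double-negative cells. In red-only cells its 3 values differed by less than 5 units, and in green-only cells they ran from 55.2 to 106.6. Npr3, the clearance receptor for natriuretic peptides and a gene of endocardium, read 16.3, 48.4 and 25.2 in red-only and 20.1, 48.6 and 35.2 in green-only cells, against at most 15.2 elsewhere.

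Promoters of 97 of the 124 genes were found in RefSeq's table on GRCm38.p6. The 250 bases before the start of Rhoj, Nrp1, Npr3 and Nid1, of the 7 genes with the largest differences, are shown. They were taken in order of difference among genes with a promoter found, with a chromosome left out. Each is written 5' to 3' on the strand of the gene, and capitals mark matches, on either strand, to 10 short motifs. These are the core promoter box TATAAA, the nuclear factor Y box CCAAT, the Sp1 box GGGCGG, the core of haematopoietic and cardiac zinc finger sites GATAA, the E-box CAGGTG, the TEAD core GGAATG, the SMAD element CAGAC, the T-box element AGGTGT, the TCF and LEF core CTTTGA and the ETS core AGGAAG. The TEAD and ETS cores share the letters GGAA and can overlap. Rhoj lies at chr12:75308063-75308312 on the plus strand, Nrp1 at chr8:128358823-128359072 on the plus strand, Npr3 at chr15:11907372-11907621 on the minus strand and Nid1 at chr13:13437352-13437601 on the plus strand.
Rhoj: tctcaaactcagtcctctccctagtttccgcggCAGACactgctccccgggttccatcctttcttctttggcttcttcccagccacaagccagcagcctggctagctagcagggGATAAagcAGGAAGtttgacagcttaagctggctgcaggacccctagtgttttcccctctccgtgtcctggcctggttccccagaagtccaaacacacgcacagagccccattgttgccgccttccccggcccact
Nrp1: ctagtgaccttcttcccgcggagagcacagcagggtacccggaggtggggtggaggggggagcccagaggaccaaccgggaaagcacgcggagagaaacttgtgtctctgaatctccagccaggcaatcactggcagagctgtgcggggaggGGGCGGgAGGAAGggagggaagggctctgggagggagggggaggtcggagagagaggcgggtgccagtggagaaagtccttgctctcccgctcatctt
Npr3: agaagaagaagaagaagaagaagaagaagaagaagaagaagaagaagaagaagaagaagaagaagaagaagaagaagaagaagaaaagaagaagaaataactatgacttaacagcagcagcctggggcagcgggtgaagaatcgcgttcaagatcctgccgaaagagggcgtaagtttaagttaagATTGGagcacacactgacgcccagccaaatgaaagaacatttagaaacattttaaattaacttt
Nid1: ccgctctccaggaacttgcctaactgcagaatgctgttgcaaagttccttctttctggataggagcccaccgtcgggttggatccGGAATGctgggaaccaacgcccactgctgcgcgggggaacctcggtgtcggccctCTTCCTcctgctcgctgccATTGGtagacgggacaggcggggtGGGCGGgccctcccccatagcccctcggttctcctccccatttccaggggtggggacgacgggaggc
The stretch before Npr3 begins with a long run of AAG repeats and has a GC content of 38.8%, against 58.0% for Rhoj and 64.4% for both Nrp1 and Nid1. The ETS core appears before Rhoj, Nrp1 and Nid1 and not before Npr3. The letters GATAA appear before Rhoj alone of the 4, and the TEAD core before Nid1 alone.

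Over windows of 300 bases (250 before to 50 after the start), AGGAAG was present in 38 of 97 promoters (39.2%), against 31.1% of 5862 promoters of other genes that reached the minimum mean and 33.6% of all 14367. The letters GATAA were present in 19.6%, 14.7% and 19.1% of these sets and GGAATG in 16.5%, 11.6% and 13.1%. CCAAT was present in 29.9%, 39.0% and 38.2%, and GGGCGG in 69.1%, 69.0% and 54.1%. TATAAA (7.22%), CAGGTG (12.4%), CAGAC (44.3%), AGGTGT (13.4%) and CTTTGA (9.28%) were each present in a share within 4 percentage points of that in the other expressed genes. Median GC content was 64.7% in the 97 promoters found for the 124 genes and 62.0% in the 5862 promoters of other genes that reached the minimum mean. A match describes letters only.

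Of 34 listed endothelial genes, 26 reached the minimum mean and 6 met the rule (23.1%): Ramp2, Cdh5, Npr3, Sox7, Eng and Sox18. The rule fixes the order of the group means for those 6. Of the 20 endothelial genes that reached the minimum without meeting the rule, 16 (80%) had both single-reporter means above both other means, against 908 of 7164 such genes in all (12.7%). Their median difference was 0.82 on the log2 scale, against 0.00 over all such genes. The minimum was set on the single-reporter mean, so genes high only there could pass it. Tie1 (31.4 against 12.8 on the other arrays) and Cd34 (25.9 against 10.1) did so. Icam2, Rasip1, Nos3, Tal1, Ecscr, She and Flt4, also among the 20, likewise had a mean below the minimum on the other arrays. This count and median are thus partly built in and are given as a description. In bulk samples, fewer cells of a type and less RNA per cell cannot be told apart.

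Endothelial genes were low on the array that differed most from its group. On the green-only array of experiment A, 24 of the 26 endothelial genes had their lowest value of the 3 green-only arrays, and the median ratio of that array to the mean of experiments B and C was 0.38, against 1.05 over all genes. The same ratio was 0.80 in red-only, 0.74 in double-positive and 0.81 in double-negative cells. In these populations experiment A also gave the lowest of 3 values for 20, 24 and 22 of the 26 genes. The ratio thus sets the green-only array apart, and the count does not. Summed intensity of 6 defining endothelial markers was 280 on that array, against 835 and 792 on the other green-only arrays, 518 to 740 in red-only, 198 to 286 in double-positive and 132 to 229 in double-negative cells. The sum on that array thus fell within the double-positive range. Its 6 endoderm markers summed to 979, against 185 and 312 on the other green-only arrays. The endoderm sum was highest in experiment A in the other populations too. It was 184 in red-only (87 and 149 in B and C), 164 in double-positive (89 and 125) and 544 in double-negative cells (185 and 362). The part of these marker levels in the single-reporter peak was not tested. No marker of either set was below the highest array median on all 3 arrays of a population.

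Among the 20 endothelial genes that did not meet the rule, 17 had this array as their lowest single-reporter value, and 13 met the gap without it. Kdr, the main VEGF receptor, missed by little. Kdr read 319.8, 465 and 369.5 in red-only and 172, 509.8 and 475 in green-only cells, against 118, 143 and 174 in double-positive and 67.4, 124 and 133 in double-negative cells. Its lowest single-reporter value, 172, was just under the highest double-positive value, 174. With the array left out, 219 genes met the rule, 19 of them in the endothelial list, and all 124 were among them. Endothelial genes met the rule as a share of 23.1% with all arrays and 73.1% without that array, and all genes as a share of 1.70% and 3.02%. Leaving out any array can only loosen the gap, and each single omission gave 126 to 219 genes. Since this array held the lowest value for 17 of the 20 genes, the rise in the endothelial share is no independent support.

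**Figure D2:**
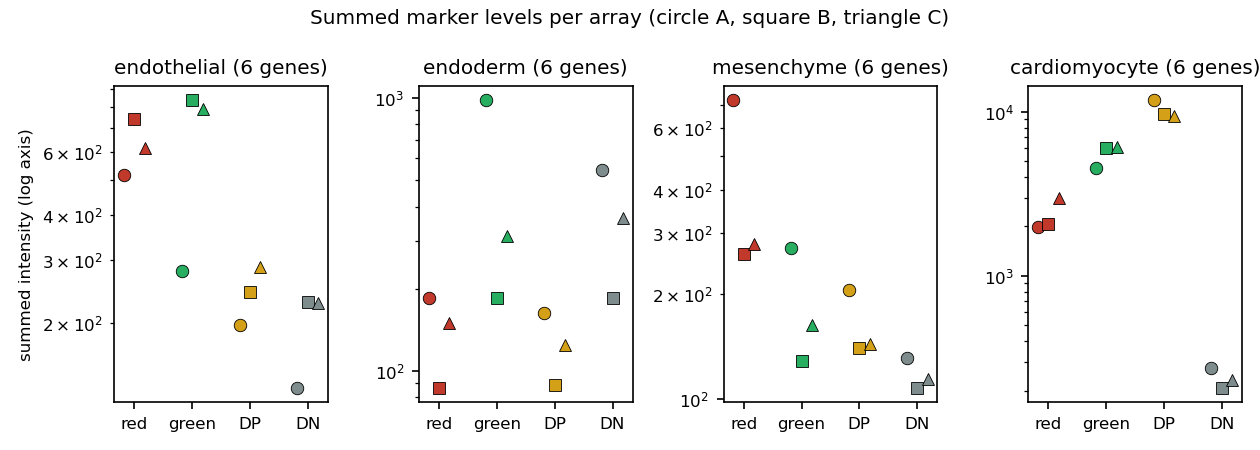
Points are summed intensities (log axis) of 6 markers each of endothelium, endoderm, mesenchyme and cardiomyocytes on every array, by population and experiment. The endothelial sum of the green-only array of experiment A, 280, lies with the double-positive arrays, and the same array has the highest endoderm sum, 979.

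Rhoj encodes a Cdc42-like GTPase of endothelial cells that acts on focal adhesions. Rhoj read 40.6, 54.9 and 37.1 in red-only and 18.7, 51.4 and 47.0 in green-only cells, against 11.01, 10.6 and 14.9 in double-positive and 7.39, 14.1 and 15.5 in double-negative cells. Its ratio of 3.40 was second only to Ets1, and the other populations stayed at or below 15.5. Tiam1 activates the GTPase Rac. Tiam1 read 66.8, 71.1 and 65.1 in red-only and 32.8, 47.7 and 57.3 in green-only cells, against 26.0, 28.3 and 32.6 in double-positive and 23.5, 23.7 and 27.3 in double-negative cells. Red-only values were all above green-only values. Rhou, an atypical small GTPase, had a ratio of 1.70 and Cdc42ep1, a Cdc42 effector, 1.84. S100a10, the annexin A2 partner, had a ratio of 1.71, Tmsb4x (thymosin beta-4, which binds monomeric actin) 1.47, and Pxn (paxillin, a focal adhesion adaptor) and Tmsb10 1.30 and 1.21.

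Axon guidance receptors and ligands, many of which also steer vessels, had 5 of 24: Nrp1, Sema6d, Nrp2, Plxnc1 and Ephb4 (20.8%). Over all genes that reached the minimum the share was 1.70%, and over those on any list 6.70% (30 of 448). Nrp1 (neuropilin-1) is a co-receptor for VEGF and class 3 semaphorins and is also on the list of second heart field genes, of which it was the only 1 of 12 (2 of 11 without the green-only array of experiment A). Nrp1 read 138, 164 and 153 in red-only and 126, 121 and 129.8 in green-only cells, against 82.0, 115 and 121 in double-positive and 22.8, 33.5 and 31.4 in double-negative cells. The highest double-positive value lay just under the lowest single-reporter value, and the double-negative values were lower than all others. Other Nrp1 probe sets with single-reporter means of 113.6 and 127.5 did not meet the gap. On them both single-reporter means were still above both others. Nrp2 had a ratio of 2.02, and Sema6d, a transmembrane semaphorin, 1.93. Plxnc1, a semaphorin receptor, had 2.10, and Ephb4, the ephrin receptor of veins, 1.35.

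The BMP and TGF-beta pathway had 4 of 28 (14.3%), and 6 of 28 (21.4%) without the green-only array of experiment A. With all arrays the share was 6.70% over genes on any list and 1.70% over all genes. Without that array it was 3.02% over all genes. Both inhibitory SMADs were among the 4. Smad6 and Smad7 block signalling by activated receptors and are themselves induced by it. Smad6 read 89.9, 82.7 and 74.6 in red-only and 90.4, 88.8 and 83.7 in green-only cells, against 66.6, 45.8 and 54.8 in double-positive and 29.9, 27.6 and 36.1 in double-negative cells. Smad7 had a ratio of only 1.26. Tgfbr3 (betaglycan) presents TGF-beta2 to its receptors and is needed in the cushions. Tgfbr3 read 113, 132 and 117 in red-only and 127, 114 and 102 in green-only cells, against 53.3, 65.6 and 61.7 in double-positive and 57.2, 63.9 and 70.6 in double-negative cells. Fstl1, a secreted BMP antagonist, had a ratio of 1.54. Bmp1, the procollagen C-proteinase, is not a BMP ligand and is not on the list. Its ratio was 1.51.

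Mesenchymal genes had 3 of 12 (25%) on all 12 arrays, and 6 of 12 (50%) without the green-only array of experiment A. Shares on all 12 arrays were 6.70% over genes on any list and 1.70% over all genes. The 3 were Eng, Mmp14 (a membrane collagenase that activates Mmp2), and Timp2, its partner. Their ratios were 1.80, 1.69 and 1.25. Basement membrane and integrin genes had 2 of 17 (11.8%; 3 of 17 without that array), Nid1 (nidogen-1, which links laminin to collagen IV) and Itga5, which with beta 1 forms the receptor for fibronectin. Nid1 read 152, 154 and 109.8 in red-only and 63.5, 107 and 109 in green-only cells, against 50.6, 47.0 and 50.8 in double-positive and 32.6, 47.2 and 51.8 in double-negative cells. Of the 26 fibrillar and other matrix genes, Fn1 alone met the rule on all 12 arrays, and 3 of 25 (12%) met it without the green-only array of experiment A. Fn1 read 1358, 1910.5 and 1427 in red-only and 1199, 1410.0 and 1238 in green-only cells, against 542, 869 and 835 in double-positive and 447, 768 and 883 in double-negative cells. Fibronectin and its receptor subunit were thus both members, with ratios of 1.97 and 1.44. Summed levels of 6 mesenchyme markers were 261 to 721 in red-only, 128 to 272 in green-only, 141 to 206 in double-positive and 108 to 131 in double-negative cells, and their part in these differences was not tested.

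A few further lists had 1 or 2 members each. Endoderm genes stood at 13.3%, adhesion genes at 9.52%, neural genes at 25% and imprinted genes at 5.56%. The share was 6.70% over genes on any list and 1.70% over all genes. Hhex, a homeobox gene of both endothelium and anterior endoderm, was 1 of 2 endoderm genes of 15, with Sox7. Hhex read 86.3, 114 and 101 in red-only and 198, 105 and 113 in green-only cells, against 42.7, 37.4 and 56.3 in double-positive and 65.3, 50.6 and 72.2 in double-negative cells. The highest Hhex value was on the green-only array of experiment A, the array with the highest endoderm sum. Of 21 adhesion genes, Cdh5 and Ncam1 met the rule, and 3 did so without that array. Ncam1, a homophilic adhesion molecule, was also the 1 of 4 neural genes, and Peg3, a paternally expressed zinc finger gene, the 1 of 18 imprinted genes, of which 3 met the rule without that array.

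On all 12 arrays, no member came from the lists of core cardiac transcription factors (17 genes reached the minimum), sarcomere genes (20), cell cycle genes (31), stress and immediate early genes (24), mitochondrial energy genes (24), glycolysis genes (20), FGF and receptor kinase signalling (23), Wnt (19), Notch (13), epithelial genes (12) or pluripotency genes (9). Nor did any come from the smaller lists of Hox, blood, early mesoderm, epicardial, paraxial mesoderm, retinoic acid and smooth muscle genes. Without the green-only array of experiment A, when 3.02% of all genes met the rule, 4 of these lists had genes that did: FGF and receptor kinase signalling (3 of 23), Notch (1 of 13), early mesoderm (1 of 5) and paraxial mesoderm (2 of 9). The others named here stayed at 0 without that array. Both single-reporter means were above both others for 0 of the 20 sarcomere genes and for 1 of the 17 cardiac transcription factors. Of the 24 stress and immediate early genes, which respond to dissociation and sorting, 8 had both single-reporter means above (33.3%), against 14.2% of all genes that reached the minimum and 28.8% of genes on any list, with a median difference of 0.28 on the log2 scale. The part of the sort in this was not tested. In all, 30 of the 124 genes were in any of the 30 lists and 94 in none.

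**Figure D3:**
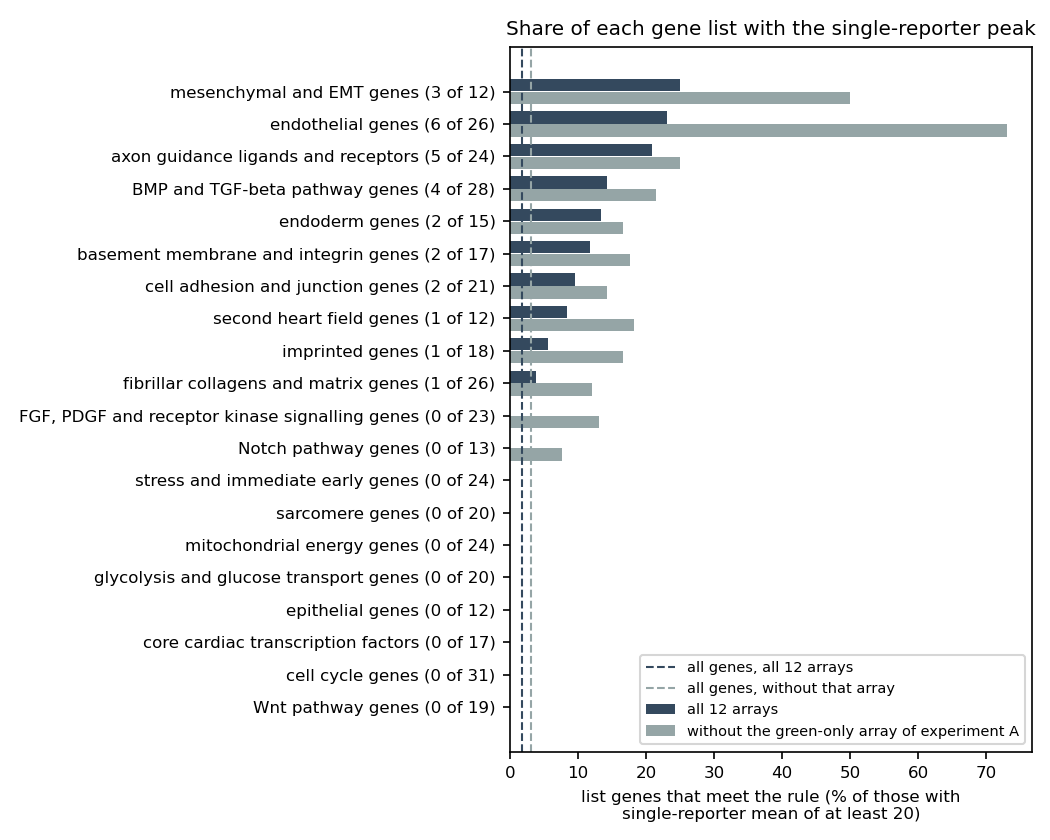
Bars give the percent of each shown gene list's genes, of those with a single-reporter mean of at least 20, that met the rule on all 12 arrays and without the green-only array of experiment A; dashed lines give the same percent for all genes (1.70% and 3.02%). When that array is left out, endothelial genes rise from 23.1% to 73.1%, mesenchymal genes from 25% to 50%, FGF and receptor kinase genes from 0 to 13.0% and Notch genes from 0 to 7.69%, and the sarcomere, cell cycle and Wnt lists stay at 0. Leaving out an array can only loosen the gap.

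Several of the largest differences belonged to genes on no list. F2r, the thrombin receptor PAR1, is a receptor of endothelium and mesenchyme. F2r read 371, 399 and 314 in red-only and 233, 315 and 306 in green-only cells, against 158, 148 and 154 in double-positive and 104, 137 and 152 in double-negative cells. Even its lowest single-reporter value, 233, was above every other value, of which the highest was 158. Cd93, a surface glycoprotein of endothelium and myeloid cells, was steady in red-only cells and variable in green-only cells. Cd93 read 33.2, 33.2 and 33.3 in red-only and 28.8, 95.7 and 81.8 in green-only cells, against 16.9, 15.6 and 16.5 in double-positive and 12.8, 20.7 and 23.7 in double-negative cells. Red-only values of Cd93 all lay within 1 unit of each other. Pmp22, a tetraspan membrane protein of myelin, and Phlda1, a pleckstrin homology-like protein induced by growth factors, had their highest green-only value in experiment A and their lowest in experiment B. Their ratios were 2.25 and 2.23. Ctla2a, a cysteine protease inhibitor, had a ratio of 2.74 and a single-reporter mean of only 21.0. Eva1b had a ratio of 1.99. The ETS gene Ets2, beside Ets1, had 1.60. Outside the 20 genes with the largest differences were Hdac7, a class IIa histone deacetylase (1.59), Rasgrp3, a Ras activator (1.64), and Adgrf5, an adhesion receptor (2.09).

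Tmsb10, Fn1, Tmsb4x, Peg3 and P4hb had the highest single-reporter intensities, which rank probe sets and not transcripts. Tmsb10 read 5569, 5391 and 5487 in red-only and 5481, 4746 and 5008 in green-only cells, against 3999, 4294 and 4525 in double-positive and 4397, 4421 and 4489 in double-negative cells. The gap of Tmsb10 was narrow beside its level, and the ratio was 1.21. P4hb, a protein disulfide isomerase of the endoplasmic reticulum that also serves collagen hydroxylation, had a ratio of 1.24. With it among the members were other genes of the early secretory route, which were picked after their values were seen: Pdia5 and Txndc5 (oxidoreductases), Calu (a calcium-binding protein), Kdelr2 and Kdelr3 (retrieval receptors) and Sar1a (a COPII GTPase).

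**Figure D4:**
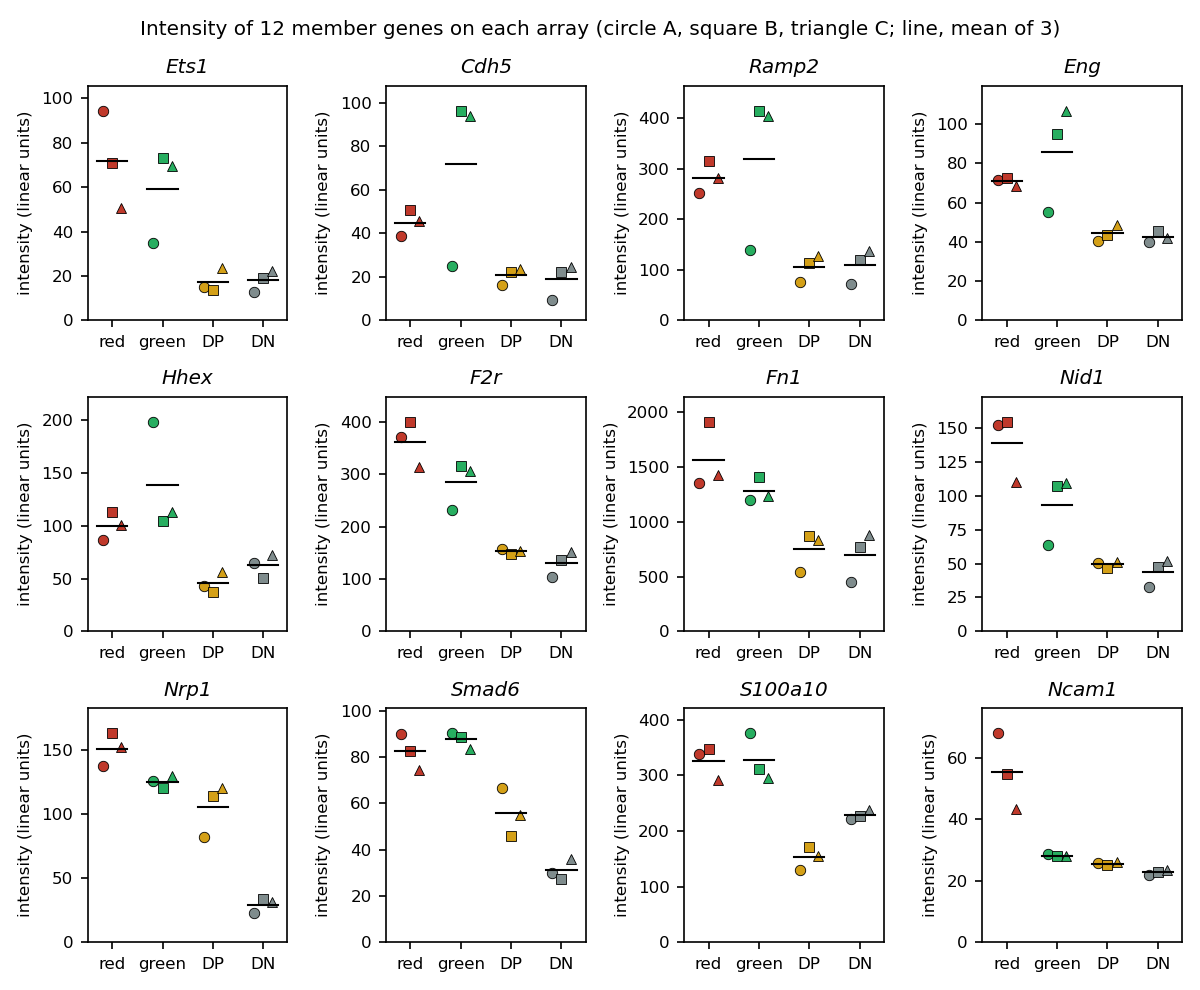
Intensities on a linear scale of 12 of the 124 genes, with 1 point per array (circle, square and triangle for experiments A, B and C) and a line at the mean of 3. Endothelial genes such as Cdh5 and Ramp2 show a low green-only point for experiment A, Hhex shows a high one there, and Nrp1, Smad6 and S100a10 show different levels in double-positive and double-negative cells.

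The median difference over the 124 genes was 0.56 in experiment A, 0.50 in B and 0.41 in C on the log2 scale, and the rule itself puts all genes above in each. The double-negative array of experiment C held the highest of the other values for 40 genes, more than any other array. A further 169 probe sets represent 81 of the genes. Of the 65 with a single-reporter mean of at least 20, 18 also met the gap and 57 had both single-reporter means above both others. Clic1 and Ddah2, on chromosome 17, were the only pair of members that are neighbours in the RefSeq gene order.

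Which of the single-reporter populations was higher is not used by the rule and was tested with limma (two-sided). Genes higher in red-only than in green-only cells numbered 6 (adjusted p under 0.05), and 0 were higher in green-only cells. This fit did not pair the arrays by experiment, and counts from a paired fit are given below. At an unadjusted p under 0.05, limma gave 26 and 5, and over all genes 988 (7.21%) and 1071 (7.82%). Over all 13698 genes tested, 1.32% were higher in red-only, 1.77% in green-only cells and 3.09% in either direction, against 4.84% of the 124. The rule also bounds this difference, since both populations must exceed the others, so this share is not read against that of all genes. All 124 passed the filter on low values. The median difference, red-only minus green-only, was 0.10 over the 124 and 0.00 over all genes.

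Ncam1 had the largest difference. Ncam1 read 68.0, 54.7 and 43.4 in red-only and 28.7, 27.9 and 28.0 in green-only cells, against 25.8, 25.1 and 26.0 in double-positive and 21.9, 22.8 and 23.6 in double-negative cells. All 3 red-only values were above all other values, and those of the other populations lay between 21.9 and 28.7. Ncam1 was at 0.86 ± 0.12 (red-only minus green-only, log2 difference ± SE, limma with Benjamini-Hochberg adjustment, adjusted p = 0.00157). Eva1b was at 0.69 ± 0.17 (adjusted p = 0.0473). Cmtm3, a membrane protein of the chemokine-like factor family, was at 0.59 ± 0.14 (adjusted p = 0.0475). Rbms1, an RNA-binding protein, was at 0.54 ± 0.11 (adjusted p = 0.0211). Bmp1 was at 0.40 ± 0.09 (adjusted p = 0.0348), and Ptpn9, a protein tyrosine phosphatase, at 0.32 ± 0.08 (adjusted p = 0.0457). These 6 genes lost their call under between 1 and 20 of 25 alternatives, Ncam1 under 1 and Ptpn9 under 20. The count of 6 fell to 1 when red-only array A, red-only array B or green-only array B was omitted, and to 2 without the double-positive array of B or C. It was 3 without the green-only array of C or the double-negative array of A or B.

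Experiment letters paired the arrays, and with experiment as a replicate block the counts were 9 and 1. The additions were Aida, Amotl1 and Tiam1, higher in red-only, and Cemip2, a cell surface hyaluronidase, higher in green-only cells (log2 difference -0.41 ± 0.10, adjusted p = 0.0298). The green-only array of experiment A changed which genes were called. Without it, 6 members were higher in green-only cells: Cd93 (-1.31 ± 0.16, adjusted p = 0.000764), Cdh5 (-1.02), Sox7 (-0.90), Ctla2a (-0.78), Ets2 (-0.65) and Eng (-0.48). The 4 higher in red-only cells were then Ncam1, Rbms1, Gulp1, an engulfment adaptor, and Kirrel, an adhesion protein. The block and the omission together gave 14 genes higher in red-only cells and 7 higher in green-only cells. Fits with that omission keep only the green-only arrays of experiments B and C. The omitted array was the lowest green-only array for Cd93, Cdh5, Sox7, Ctla2a and Eng. Ets2 stood at -0.40 with all arrays, so the omitted array was below its green-only mean too. The shift of these 6 genes toward green-only cells without that array is therefore built in. With all arrays, Cd93 stood at -0.81 ± 0.31 (adjusted p = 0.227) and Cdh5 at -0.44 ± 0.40 (adjusted p = 0.693). In the endothelial list as a whole, of 33 genes tested, 1 was higher in red-only cells and 2 in green-only cells. Higher in red-only cells was Etv2, the ETS factor that starts the blood and endothelial programme (1.33 ± 0.16, adjusted p = 0.000665), and higher in green-only cells were Flt1 (-0.54) and Sox17 (-1.45), none of them members. Sox17 is also 1 of the 6 endoderm markers. It read 93.6, 38.6 and 49.6 in green-only cells, highest on the array with the highest endoderm sum.

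The same fit gave the difference between the double-positive and the double-negative population. The rule keeps both below the single-reporter arrays, which limits how far a member can differ between them, so the share called is not read against the background. It was 18 of 124 (14.5%), against 31.5% of all genes tested. Of the 124 genes, 13 were higher in double-positive cells, against 1904 of all 13698 genes tested (13.9%). Higher in double-negative cells were 5 of the 124, against 2411 of 13698 (17.6%). The median, double-positive minus double-negative, was 0.05 over the 124 and -0.01 over all genes.

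Nrp1 had the largest difference, at 1.72 ± 0.15 (double-positive minus double-negative, log2 difference ± SE, limma with Benjamini-Hochberg adjustment, adjusted p = 1.78e-06). Smad6 read 66.6, 45.8 and 54.8 in double-positive and 29.9, 27.6 and 36.1 in double-negative cells, without overlap, and was at 0.75 ± 0.12 (adjusted p = 0.000434). Tax1bp3, a PDZ domain protein, was at 0.54 ± 0.10 (adjusted p = 0.00116) and Clic1, a chloride channel protein, at 0.51 ± 0.09 (adjusted p = 0.000676). Cemip2 was at 0.46 ± 0.12 (adjusted p = 0.0133). Smaller differences in the same direction were seen for Ugdh, which makes UDP-glucuronate for matrix glycans (0.42), Nrp2 (0.40), App, the amyloid precursor protein (0.39), Ndel1 (0.33), Kdelr2 (0.30), Ptpn9 (0.24), Cdc42bpb (0.23) and Timp2 (0.22).

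S100a10 was the member with the largest difference the other way. S100a10 read 130.4, 172 and 156 in double-positive and 222, 226 and 238 in double-negative cells, again without overlap, against 339, 348 and 292 in red-only and 376, 311 and 295 in green-only cells. The difference was at -0.58 ± 0.11 (adjusted p = 0.00171). Ptpn12, a phosphatase that acts on focal adhesion proteins, was at -0.51 ± 0.09 (adjusted p = 0.000702), and Adgrf5 was at -0.51 ± 0.15 (adjusted p = 0.0237). Ephb4 stood at -0.39 and Sh3gl1, an endophilin, at -0.20. Nrp1, Smad6, Clic1, Ptpn12 and S100a10 were called under all 25 alternatives, and no call turned direction. The count higher in double-positive cells was 8 without the double-negative array of experiment B, and the count higher in double-negative cells was 3 without the double-positive array of A or the double-negative array of C. The share of calls in each direction and the sizes are given for all members in the plot of the 2 differences, in which 101 genes passed neither threshold. Ptpn9 passed both.

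**Figure D5:**
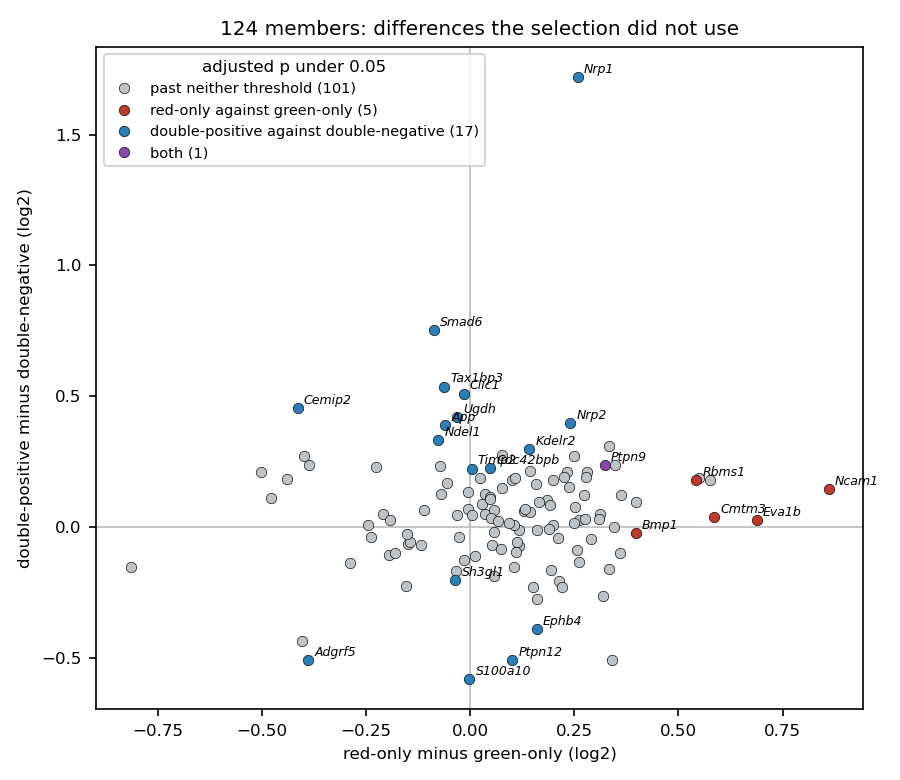
Each point is 1 of the 124 genes, placed by red-only minus green-only (x axis) and double-positive minus double-negative (y axis), both log2 differences, and coloured by which comparison passed an adjusted p of 0.05. Nrp1 lies at 1.72 on the y axis and Ncam1 at 0.86 on the x axis, and most genes lie near 0 on both.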

How the data were processed

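The deposited series table gives linear intensity values for 45101 probe sets on 12 arrays, which the authors made with MAS5, per the submitters' processing notes; its version and scaling target are not given in the sources used here. After 64 controls, probe sets with several genes (932) and with none listed (9160) were left out, 34945 with 1 gene remained, for 18193 genes. Differences were tested as log2(intensity + 4.10), where the pseudocount is the 25th percentile of all values, so folds of low genes are understated. limma 3.58.1 in R 4.3.3 (lmFit, eBayes) was fitted to all 12 arrays with 1 mean per group, for 13698 genes with a mean of at least 3.22 (the 40th percentile of probe sets), with Benjamini-Hochberg adjustment over all of them. Figures were drawn with matplotlib 3.10.9. Data were simulated 10 times for red-only against green-only, with 200 of 13698 genes changed. Of changes of 0.5 and 1 (log2), 64.6% and 95% were recovered, and 4.91% of calls were false. These rates describe the simulated data only. Whether they hold for the real arrays, with their pairing by experiment and the deviating green-only array of experiment A, was not tested. Deviations from group means correlated at 0.116 to 0.423 in all 18 pairs of arrays of the same experiment, and at most 0.0718 across experiments, so experiment letters pair the arrays; the block was run as an alternative. With 3 arrays per group, their number limits the precision. The members, the gene lists, the comparisons and the motifs were chosen with earlier results of these data known, and AGGAAG was added after the members were found. Genes named are the 20 largest differences, the 5 highest intensities, up to 6 members of a list, up to 8 calls in each direction and those nearest the limits of the rule; genes named outside these, such as Ets2, Hdac7, Rasgrp3, Kdr, Etv2 and the genes of the secretory route, were chosen after their values were seen. The count for 1 gene list is not reported here.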

Additional observations from a re-analysis of the deposited data

How the results depend on the processing

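The count of 124 genes was 122 after quantile normalization (97 shared), 140 and 97 with a minimum mean of 10 and 40, 149 with every probe set on its own and 114 (102 shared) with the probe set of largest variance. Leaving out 1 array gave 126 to 219. Leaving out experiment A, B or C gave 330, 228 and 273, with fewer arrays to separate, and applying the rule within each experiment, an alternative chosen after seeing the data, gave 296. Genes higher in red-only than in green-only cells numbered 3 after quantile normalization, 1 with only the 6 arrays compared and 1 to 7 with 1 array left out. Genes higher in green-only cells numbered 1 with the experiment as a replicate block, 1 with the probe set of largest variance and 0 to 6 with 1 array left out. Genes higher in double-positive cells numbered 8 to 17 and in double-negative cells 3 to 7 with 1 array left out. Leaving out whole experiments, also chosen after seeing the data, gave 0 (B) and 1 (C) genes higher in red-only cells and 6 (A) in green-only cells. It gave 5 (B) and 8 (C) higher in double-positive cells and 2 (B) in double-negative cells. The paired fit with the replicate block and without the green-only array of experiment A, chosen likewise, gave 14 genes higher in red-only cells, 7 in green-only cells and 8 in double-negative cells. The replicate block alone left the other counts within 1.5 times. The cause of these changes was not tested beyond the fewer arrays in each fit. No call of a member reversed. Low intensities lie near the floor of the table (2.09), where signal over background was not given.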
